A study of Mus musculus with 15 samples.

Results

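Trim24COE mice overexpress Trim24 in the mammary epithelium, and their tumors were compared with mammary glands of control mice by RNA-seq of bulk tissue. The comparison used 10 of the 15 libraries of the series, which were the first libraries of sequencing batch 1: 6 tumors labelled TRIM24 overexpression and 4 mammary glands labelled Cre control. Each library came from a different mouse. By the sample labels, the tumors of mice 64, 567 and 897 were carcinosarcomas and those of mice 89, 273_5 and 3956 were carcinomas. The control glands came from mice 133, 392, 417_3 and 517_3, and gland values are given in this order throughout. The 2 repeat libraries, of tumor 3956 and gland 133, and 3 spontaneous tumors, whose genotype the labels give as unknown, were left out. The labels give the strain of all mice as FVB, whereas the design text calls the controls FVB/129, and no age, treatment or sex is given. The study's methods call the controls age-matched virgin females.

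Both groups carry Cre under the MMTV promoter, which is active mainly in mammary epithelium. In Trim24COE mice, Cre removes a stop cassette that lies between a promoter and a Flag-tagged cDNA of mouse Trim24, which was brought in as a single-copy piggyBac transgene. Immune cells, fibroblasts, vessels and fat cells also give RNA to bulk libraries. In such tissue, fewer cells of a type and less RNA per cell cannot be told apart.

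TRIM24 is a reader of histone modifications that carries a PHD finger and a bromodomain, and it acts as a co-regulator of nuclear receptors. The virgin mammary gland is a tree of ducts, with luminal cells inside and contractile basal cells around them, which lies in a pad of fat that also holds vessels, nerves, fibroblasts, macrophages and lymphocytes. Part of the luminal cells express receptors for estrogen, progesterone and prolactin and pass these signals on to their neighbours. A tumor that takes the place of such a gland is set against this whole mixture of cells.

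Values are TPM, a length-scaled measure of transcript abundance, which the authors made with RSEM. TPM are scaled by transcript length, which lets levels be compared between genes. Every library has an equal total, which leaves its depth unknown. The test was limma's, fitted to log2(TPM + 1) over the 15196 genes with at least 1 TPM in at least 4 of the 10 libraries, and a gene was called when its Benjamini-Hochberg adjusted p-value was under 0.05. Fold changes are tumor over gland on the log2(TPM + 1) scale, which understates the change of genes near 1 TPM. The number of genes with at least 1 TPM was 13553 to 15293 in the tumors and 14555 to 16908 in the glands, a difference with p = 0.0286 in a two-sided exact permutation test. Transcripts of mitochondrial DNA made up 2.7% to 9.58% of TPM in the tumors, and 19.8% in gland 133 against 5.50% to 8.09% in the other glands (two-sided exact permutation test, p = 0.352).

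The control glands fell into 2 pairs. Glands 417_3 and 517_3 were as alike as 2 libraries of the same mouse: 2.73% of 11302 genes with a mean of at least 5 TPM were more than 2-fold apart, against 2.77% for the 2 libraries of gland 133 and 3.01% for those of tumor 3956. Glands 133 and 392 had 8.31% of genes more than 2-fold apart. No other pair of first libraries within a group came below 10.2%. Without read counts, it could not be tested whether glands 417_3 and 517_3 differ by more than sampling noise. They were kept as 2 mice, as labelled, and each count that led a section was repeated with their mean as a single gland, with only these 2 glands and with only glands 133 and 392, settings chosen after the data were seen.

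Trim24 itself, on chromosome 6, 37870811 to 37966296 (GRCm38, GENCODE M21), had 10.6 to 24.1 TPM in the tumors (median 14.2) and 14.5, 18.4, 22.4 and 15.9 TPM in the glands. The groups overlapped, and no difference was called (log2 fold change -0.24, standard error 0.26, limma adjusted p = 0.557). The RNA level in these libraries was thus not higher than in the glands, against the direction of the label. By qRT-PCR, the study reports high Trim24 RNA in these tumors against Cre-only glands. It also reports overexpressed TRIM24 and Flag protein in Trim24COE tumors by immunohistochemistry. Those measures, which go the other way, were not analysed here. The files give a single value for Trim24, which does not separate RNA of the endogenous gene from that of the transgene. All directions below are between tumors labelled Trim24COE and control glands. For its relatives in the TIF1 family no difference was called either: Trim28, a co-repressor that binds KRAB zinc finger proteins, had 146 to 208 TPM in the tumors (median 164) and 89, 104, 167 and 166 TPM in the glands (log2 fold change 0.41, limma adjusted p = 0.233), and Trim33, a regulator of SMAD signaling, had 14.1 to 24.1 TPM in the tumors (median 18.6) and 10.8, 10.1, 36.7 and 25.3 TPM (log2 fold change 0.03, limma adjusted p = 0.961). Of the 3 TIF1 genes tested 0 had an unadjusted p under 0.05.

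Of the 15196 genes tested, 2597 (17.1%) were called, 1210 (7.96%) higher and 1387 (9.13%) lower in the tumors. The median log2 fold change of all tested genes was -0.04. For 2217 genes (14.6%) the groups did not overlap, and 1896 of these were among the called genes. Of the 1210 called higher, 88 were under 1 TPM in all 4 glands. Of the 1387 called lower, 135 were under 1 TPM in all 6 tumors. Such genes passed the filter only through the group in which they were high. Averaging glands 417_3 and 517_3 gave 1819 called genes, of which 1733 were among the 2597. With only these 2 glands, 2653 were called, 1446 of them shared, and with only glands 133 and 392, 3209 and 1512. The number called in the full comparison and in all 10 fits that left out 1 mouse was 1285, of which 566 were higher and 719 lower. Genes were grouped into 42 lists by cell type or pathway, and each list is described below by how many of its tested members were called, against the 7.96% higher and 9.13% lower among all genes.

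**Figure D1:**
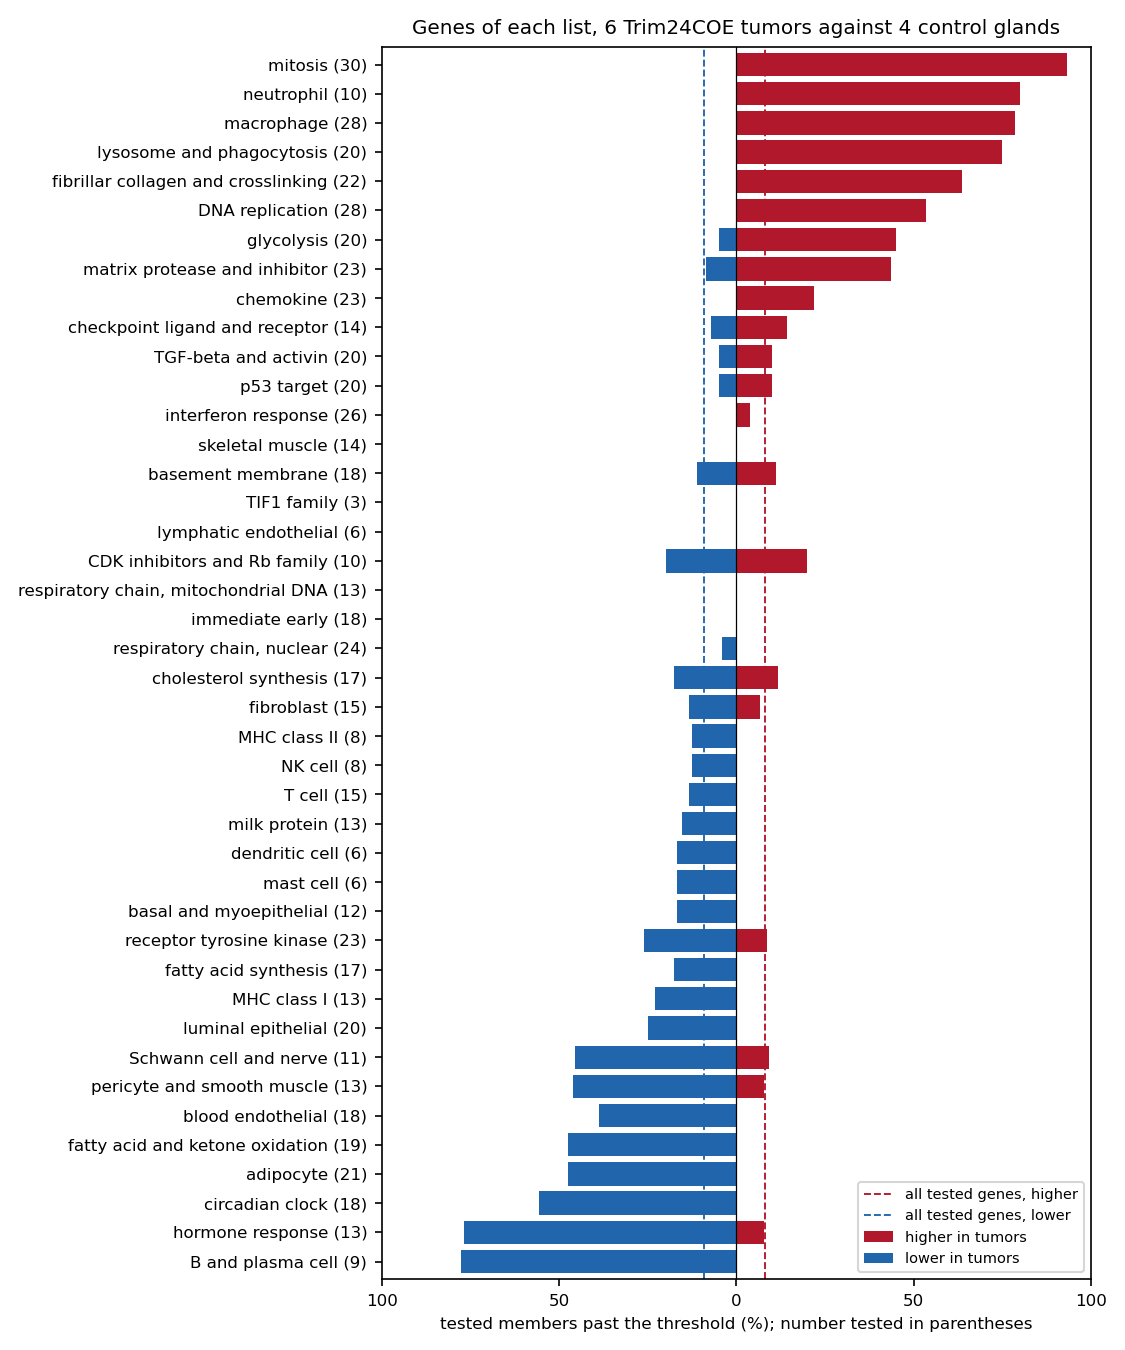
For each of the 42 gene lists, the bars give the percentage of tested members called higher (right, red) and lower (left, blue) in the 6 Trim24COE tumors than in the 4 control glands, and the dashed lines give the same for all 15196 tested genes (7.96% and 9.13%). Mitosis, neutrophil, macrophage and lysosome lists lie farthest to the right, and B and plasma cell, hormone response and circadian clock lists farthest to the left.

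Macrophage genes were higher in the tumors. Of 28 markers, 22 were called higher and 0 lower, with a median log2 fold change of 2.51. Their summed level was 5836 to 11829 TPM in the tumors (median 8606) and 1166, 2038, 1076 and 1168 TPM in the glands, so that every tumor lay above every gland. The members with the smallest p-values were Msr1, Spp1, Ccr1, Ms4a6d and Clec5a. Msr1, a scavenger receptor for modified lipoproteins (chromosome 8, 39581685 to 39642673), had 29.7 to 97.7 TPM in the tumors (median 52.3) and 1.64, 2.11, 3.02 and 2.22 TPM in the glands (log2 fold change 4.01, standard error 0.32, limma adjusted p = 0.0001). Spp1, or osteopontin, a secreted ligand of integrins and CD44, had 1370.1 to 3129.6 TPM in the tumors (median 2259.6) and 94.9, 15.6, 34.5 and 45.3 TPM in the glands (log2 fold change 5.76, standard error 0.42, limma adjusted p = 0.0001). The tumors shared this level across both classes, and no gland came near it. Ccr1, a chemokine receptor of myeloid cells, had 22.2 to 51.7 TPM in the tumors (median 27.6) and 1.53, 1.82, 1.58 and 1.42 TPM in the glands (log2 fold change 3.62, limma adjusted p = 0.0001). Ms4a6d, a membrane protein of macrophages, had 63.7 to 125 TPM in the tumors (median 83.2) and 4.68, 10.03, 4.82 and 4.21 TPM (log2 fold change 3.70, limma adjusted p = 0.0001). Clec5a, a lectin that signals through DAP12, had 14.7 to 43.7 TPM in the tumors (median 21.9) and 1.43, 1.7, 1.25 and 1.26 TPM (log2 fold change 3.34, limma adjusted p = 0.000207). Every tumor was above every gland for all 5. The count of 22 was between 17 and 24 with either pair of glands alone, with the pair averaged and in the fits without 1 mouse.

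Genes of lysosomes and phagocytosis, which macrophages express at high levels, were higher as well. Of 20 members, 15 were called higher and 0 lower (median log2 fold change 1.16). Npl, the lyase that degrades sialic acid, which is cytosolic and not lysosomal, had 23.4 to 51.7 TPM in the tumors (median 47) and 5.66, 2.99, 1.86 and 2.07 TPM in the glands (log2 fold change 3.48, standard error 0.31, limma adjusted p = 0.000178). Ctss, cathepsin S, which trims the invariant chain of MHC class II, had 409 to 992 TPM in the tumors (median 687) and 59.2, 129, 94.3 and 101 TPM (log2 fold change 2.89, standard error 0.29, limma adjusted p = 0.000271). The lysosomal protease Lgmn rose as well (log2 fold change 2.26), and the hydrolase Gusb (1.61) by less. The groups did not overlap for any of these 4 genes. The count was 9 to 16 in the fits without 1 mouse (9 without 133 or 517_3). With the mean level of adipocyte genes added as a covariate, 6 of the 20 were called and the median was 1.24.

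Neutrophil genes were also higher. Of 14 markers 10 passed the filter on low values, and 8 of these were called higher and 0 lower (median log2 fold change 2.23), but 3 of the 8 were under 1 TPM in all 4 glands and were tested only because the tumors expressed them. S100a9 and S100a8 encode the subunits of calprotectin, a calcium-binding complex that fills neutrophil granules and cytosol. S100a9 had 32.7 to 847 TPM in the tumors (median 143) and 3.97, 4.52, 2.26 and 3.81 TPM in the glands (log2 fold change 5.01, standard error 0.67, limma adjusted p = 0.00111). S100a8 had 40.5 to 1072 TPM in the tumors (median 122) and 4.82, 4.81, 1.99 and 3.31 TPM (log2 fold change 5.20, standard error 0.74, limma adjusted p = 0.00134). In both genes carcinoma 89 was the highest tumor and carcinoma 3956 the lowest, and no tumor overlapped the glands. Retnlg (3.32), the receptor Trem1 (2.73) and the G-CSF receptor Csf3r (2.37) followed on the log2 fold change scale. The summed level of the 14 markers was 167 to 2434 TPM in the tumors (median 326) and 117, 199, 102 and 114 TPM in the glands, and here tumor 3956 lay below gland 392.

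Among chemokines, 5 of 23 tested genes were called higher and 0 lower. Ccl12, a ligand of CCR2, had 37.5 to 221 TPM in the tumors (median 78.2) and 5.82, 15.2, 4.28 and 4.65 TPM in the glands (log2 fold change 3.39, standard error 0.47, limma adjusted p = 0.00123). Ccl9 (log2 fold change 2.63, limma adjusted p = 0.0157) and Ccl6 (3.18, 0.0269) are ligands of CCR1, the receptor that was itself higher. Cxcl5, a neutrophil attractant that binds CXCR2, had 1.3 to 207 TPM in the tumors (median 41.3) and 0.35, 0.48, 0.46 and 1.08 TPM (log2 fold change 4.21, limma adjusted p = 0.017). Cxcl3, a ligand of the same receptor, had 3.4 to 212 TPM in the tumors (median 14.9) and 0.54, 0.2, 1.59 and 1.8 TPM (log2 fold change 3.53, limma adjusted p = 0.0235). In Cxcl5, carcinoma 3956 was the lowest tumor and carcinoma 89 the highest, as for S100a8 and S100a9. Against glands 417_3 and 517_3 alone, 5 chemokines were called higher and 5 lower. Ccl6 kept its call only without mouse 64, 89, 273_5, 133 or 392 among the fits without 1 mouse. Cxcl3 lost its call without mouse 133 or 392.

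Calls in the T cell list were near the share among all genes. Of 15 T cell genes tested, 0 were called higher and 2 lower (13.3%), against 7.96% and 9.13% among all genes. The 2 were Cd247 and Cd3e, both parts of the T cell receptor complex. Cd247 had 0.9 to 2.5 TPM in the tumors (median 1.57) and 4.26, 7.84, 4.23 and 4.28 TPM in the glands (log2 fold change -1.22, limma adjusted p = 0.0106), and Cd3e had 0.3 to 3.26 TPM in the tumors (median 2.4) and 4.03, 4.41, 6.71 and 6.53 TPM (log2 fold change -1.14, limma adjusted p = 0.0464). The 16 T cell genes summed to 14.8 to 65.4 TPM in the tumors (median 50.8) and 50.7, 82.9, 91.7 and 84.7 TPM in the glands, with the lowest value in carcinoma 3956. Among 8 NK cell genes tested, Gzma, a granzyme of cytotoxic granules, was called lower, from 20.3, 13.5, 4.47 and 5.62 TPM in the glands to 0.12 to 4.51 TPM in the tumors (median 0.915) (log2 fold change -2.34, limma adjusted p = 0.0136). The others named by the rule, Nkg7 (0.175), Gzmb (0.513) and Klrd1 (0.956), did not pass by their limma adjusted p. The 1 call among 8 NK cell genes (12.5%) was likewise near the 9.13% lower among all genes. Cd3e kept its call only without mouse 89 or 567 among the fits without 1 mouse.

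B and plasma cell genes were lower in the tumors. Of 9 tested, out of 14, 7 were called lower and 0 higher (median log2 fold change -2.25). Ighm, the heavy chain of IgM, had 7.69 to 34 TPM in the tumors (median 25.2) and 120.3, 2215, 179 and 188 TPM in the glands (log2 fold change -3.89, standard error 0.75, limma adjusted p = 0.00625). Igkc, the kappa light chain, had 53.4 to 603 TPM in the tumors (median 152) and 779, 6886, 1139 and 1343 TPM (log2 fold change -3.36, standard error 0.72, limma adjusted p = 0.0105). Gland 392 stood far above the other glands in both, and without it every tumor was still below every gland. Jchain, which joins IgA and IgM into polymers, Mzb1, a chaperone of antibody secretion, and Cd79a, a chain of the B cell receptor, had log2 fold changes of -3.37, -2.64 and -2.25. The count of 7 was 4 to 8 in the fits without 1 mouse (4 without 392 or 517_3). With the adipocyte covariate, 0 of the 9 were called and the median was -2.36. Among 6 dendritic cell genes tested, the transcription factor Zbtb46 was called lower (log2 fold change -1.07, limma adjusted p = 0.0391). Among 6 mast cell genes, the receptor Kit was called lower (log2 fold change -2.94, limma adjusted p = 0.0103), while Mcpt4 and Cma1, proteases typical of mast cells, were not (limma adjusted p = 0.478 and 0.508). In the dendritic and mast cell lists alike that was 1 call of 6 (16.7%), against 9.13% lower among all genes. Kit is also made by luminal cells of the gland. Cd79a lost its call without mouse 392 or 517_3. Zbtb46 kept its call only without mouse 64, 89 or 567 among the fits without 1 mouse.

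**Figure D2:**
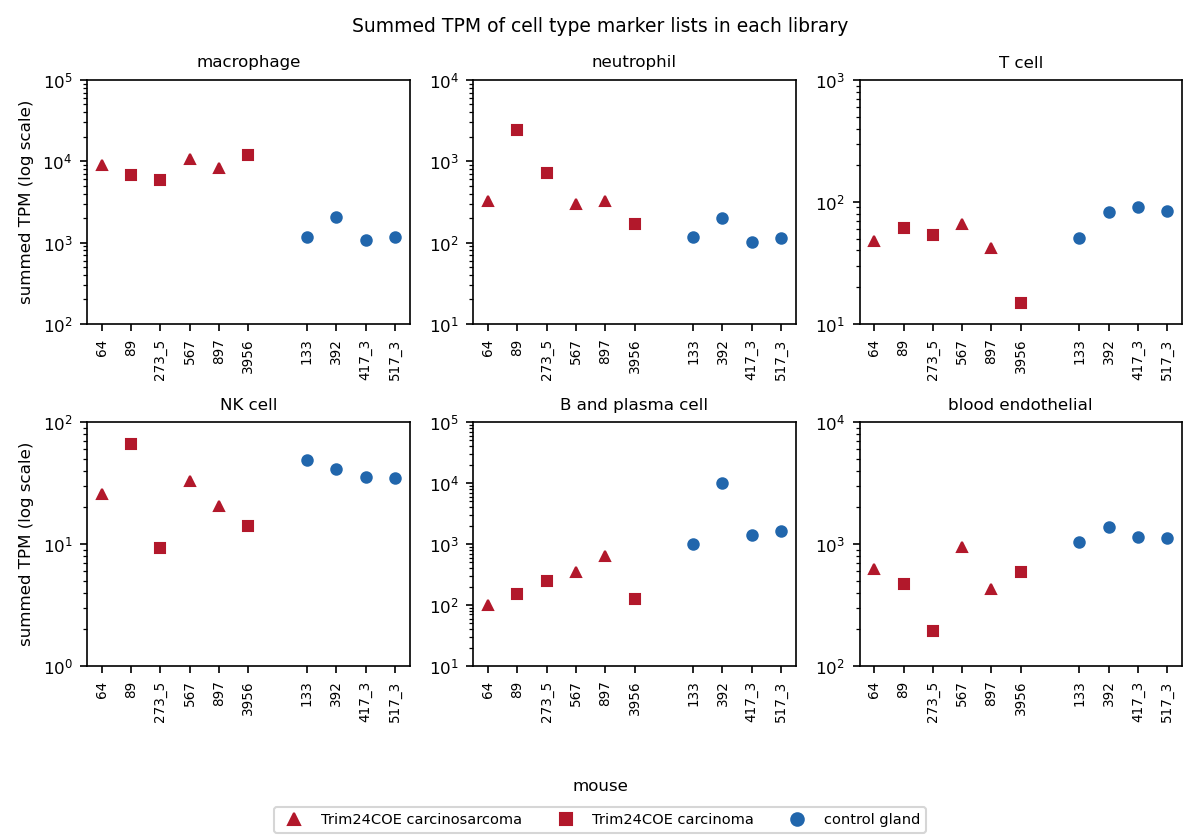
Summed TPM (log scale) of 6 marker lists in each library, with carcinosarcomas as triangles, carcinomas as squares and control glands as circles, labelled by mouse. All 6 tumors lie above all 4 glands for macrophages and below them for B and plasma cells and blood endothelium, while T cell and NK cell sums overlap.

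Of interferon-stimulated genes, 0 were called lower and 1 of 26 higher (3.85%, against 7.96% among all genes). This was Oas1a, a sensor of double-stranded RNA, with 7.94 to 56.9 TPM in the tumors (median 34.4) and 3.68, 15.8, 7.69 and 8.3 TPM in the glands (log2 fold change 1.76, limma adjusted p = 0.044). Bst2 (0.229), Irf1 (0.523) and Isg15 (0.0954) did not pass by their limma adjusted p. The summed level was 486 to 2896 TPM in the tumors (median 805) and 609.5, 755, 903 and 828 TPM in the glands, and tumors 64, 89 and 273_5 were above all glands whereas 567, 897 and 3956 were below all of them. For the antigen-presenting genes of MHC class I, 3 of 13 were called lower: H2-K1 (log2 fold change -1.66), H2-T23 (-1.98) and the peptide transporter Tap2 (-1.53), with limma adjusted p-values of 0.0367, 0.0394 and 0.0452. When glands 417_3 and 517_3 were averaged, 0 of the 13 were called in limma, and lower calls numbered 0 to 6 in the fits without 1 mouse (0 without 567, 897, 3956, 392, 417_3 or 517_3 and 6 without 89). Among 8 genes of MHC class II, H2-Oa was called lower (log2 fold change -1.36, limma adjusted p = 0.0304), and Cd74, H2-Ab1 and H2-Aa, the most abundant, were not (limma adjusted p = 0.202, 0.178 and 0.118). This 1 call of 8 (12.5%) was near the 9.13% lower among all genes. H2 genes vary between strains and resemble one another, and the reads of FVB mice were aligned to the C57BL/6 reference, so values of single H2 genes are uncertain. Of 14 immune checkpoint genes tested, Cd276, a B7 family ligand also known as B7-H3, rose from 2.98, 2.95, 10.9 and 9.38 TPM in the glands to 26.9 to 52.3 TPM in the tumors (median 37.5) (log2 fold change 2.48, standard error 0.36, limma adjusted p = 0.00162). Havcr2, or TIM-3, rose as well (log2 fold change 1.24, limma adjusted p = 0.034), and Vtcn1, or B7-H4, fell (log2 fold change -2.46, limma adjusted p = 0.0226). Checkpoint calls were thus 14.3% higher and 7.14% lower, against 7.96% and 9.13% among all genes. Oas1a kept its call only without mouse 897 or 392 among the fits without 1 mouse. H2-K1 and H2-T23 kept their calls only without mouse 64, 89, 273_5 or 133. Tap2 kept its call only without mouse 89 or 273_5. H2-Oa kept its call only without mouse 64, 89, 273_5, 567 or 133. Havcr2 kept its call only without mouse 89, 273_5, 417_3 or 517_3. Vtcn1 lost its call without mouse 417_3 or 517_3.

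Genes of mitosis were the list with the largest share of calls. All 30 were tested, 28 were called higher and 0 lower, and the median log2 fold change was 2.07. Ube2c, the ubiquitin-conjugating enzyme of the anaphase-promoting complex, had 79.8 to 156 TPM in the tumors (median 120.3) and 13, 12, 19.2 and 21.8 TPM in the glands (log2 fold change 2.79, standard error 0.25, limma adjusted p = 0.000185). Cenpa, the histone variant of centromeres, had 38.3 to 103 TPM in the tumors (median 79.2) and 12.2, 7.29, 14.1 and 11.9 TPM (log2 fold change 2.62, standard error 0.29, limma adjusted p = 0.000428). Birc5, or survivin, had 48.5 to 159.7 TPM in the tumors (median 101) and 9.22, 6.47, 13.8 and 15.8 TPM (log2 fold change 2.97, standard error 0.34, limma adjusted p = 0.000515). In these genes no tumor overlapped the glands, and carcinoma 3956 was the lowest tumor. Plk1, a mitotic kinase, had 12 to 26.4 TPM in the tumors (median 23.1) and 2.02, 1.15, 4.53 and 3.95 TPM (log2 fold change 2.49, standard error 0.35, limma adjusted p = 0.00134). Cdk1, the kinase that drives entry into mitosis, had 92.4 to 157 TPM in the tumors (median 119.6) and 10.03, 4.93, 28.9 and 29.9 TPM (log2 fold change 2.94, standard error 0.44, limma adjusted p = 0.00174). The 2 genes that were not called, named here after their values were seen, were Bub1b (limma adjusted p = 0.0728) and Mki67 (0.125). Their log2 fold changes were 1.56 and 1.23.

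The size of the difference in mitotic genes depended on the gland. Their summed level was 599 to 1208 TPM in the tumors (median 1049) and 123, 73, 317 and 271 TPM in the glands, so glands 417_3 and 517_3 lay well above 133 and 392, yet below every tumor. Against 417_3 and 517_3 alone 17 of 30 were called higher, against 133 and 392 alone 30, and with the adipocyte covariate 11, where the median was 1.51. DNA replication genes showed the same layout on a smaller scale. Of 28, 15 were called higher and 0 lower (median log2 fold change 1.19), with summed levels of 675 to 1419 TPM in the tumors (median 1047) and 262, 255, 828 and 775 TPM in the glands. Tumor 3956 thus lay below glands 417_3 and 517_3. Tk1, thymidine kinase, rose by 1.96 on the log2 scale, Cdc45, a part of the replicative helicase, by 1.91, and Rrm2, a subunit of ribonucleotide reductase, by 1.93. The cyclins of the S phase, Ccne1 (1.78) and Ccna2 (2.24), rose too. Only 417_3 and 517_3 as controls gave 4 calls among the 28, only 133 and 392 gave 24, and the adipocyte covariate left 1, with a median of 0.54. The count was 7 to 15 in the fits without 1 mouse (7 without 133 and 8 without 64, 567, 897 or 392).

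Many mitotic genes are known to share promoter elements, the CHR (cell cycle genes homology region) and the CCAAT box that NF-Y binds, through which the DREAM and MuvB complexes repress or activate them. RefSeq promoters (GRCm38.p6) were searched on both strands over the 250 bases before the start, for TTTGAA or TTCGAA as CHR and for CCAAT, where matches of the 2 motifs can share an end base. Promoters were matched by symbol for 26 of the 30 mitosis genes, giving 28 promoters. A CHR match was present in 42.9% of them and in 17.1% of all 32851 promoters, a CCAAT match in 75% and 33.8%, and both in 39.3% and 6.02%. For 25 promoters of 23 of the 28 DNA replication genes these shares were 20%, 60% and 16%. A match is a description of the letters and not a measured site. For the promoters shown next, matches that ran into the last 5 bases before the start were not counted. Promoters of a single chromosome were left out of this choice. The 5 called mitosis genes with the smallest p-values whose last 120 bases before the start held both motifs are shown to make this shared layout visible, as 115 bases on the coding strand that end 5 bases before the start, with CHR and CCAAT matches of either strand in capitals:
Ube2c, chr2:164769809-164769923, plus strand: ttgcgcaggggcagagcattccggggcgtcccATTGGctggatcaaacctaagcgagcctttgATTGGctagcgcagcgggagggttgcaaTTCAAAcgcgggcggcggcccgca
Cdk1, chr10:69352918-69353032, minus strand: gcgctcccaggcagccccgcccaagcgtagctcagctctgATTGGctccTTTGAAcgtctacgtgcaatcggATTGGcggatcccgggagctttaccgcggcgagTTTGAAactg
Cdc20, chr4:118437349-118437463, minus strand: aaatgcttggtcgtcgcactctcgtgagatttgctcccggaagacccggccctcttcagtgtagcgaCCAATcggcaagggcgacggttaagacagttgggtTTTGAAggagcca
Top2a, chr11:99024195-99024309, minus strand: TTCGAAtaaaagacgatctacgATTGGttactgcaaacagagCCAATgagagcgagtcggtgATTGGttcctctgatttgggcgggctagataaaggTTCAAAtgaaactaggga
Prc1, chr7:80294356-80294470, plus strand: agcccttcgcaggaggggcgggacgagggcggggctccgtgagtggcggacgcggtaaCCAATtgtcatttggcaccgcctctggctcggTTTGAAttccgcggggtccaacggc
In these stretches Cdk1 and Top2a each had 2 CHR matches, while Ube2c, Cdc20 and Prc1 had 1. Between the last CHR match and the start lay 23 bases in Ube2c, 9 in Cdk1, 12 in Cdc20, 17 in Top2a and 24 in Prc1. Cdc20 (log2 fold change 2.33, limma adjusted p = 0.00558), which activates the anaphase-promoting complex, Top2a (log2 fold change 2.41, limma adjusted p = 0.00883), a topoisomerase, and Prc1 (log2 fold change 1.87, limma adjusted p = 0.0132), a microtubule bundler of cytokinesis, were outside the rule for named genes and are given for their sequence.

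The list of CDK inhibitors and the Rb family held 10 genes, of which 2 were called higher (20%) and 2 lower (20%). Among all genes these shares were 7.96% and 9.13%. Cdkn2a, which encodes p16INK4a and p19ARF, was among the 6 largest fitted increases of the 15196 genes tested, with 90.2 to 1074 TPM in the tumors (median 467) and 2.49, 16.5, 3.0 and 3.41 TPM in the glands (log2 fold change 5.88, standard error 0.79, limma adjusted p = 0.00111). Its neighbour Cdkn2b, which encodes p15INK4b, had 28.5 to 162 TPM in the tumors (median 84.4) and 9.44, 7.9, 2.47 and 2.03 TPM (log2 fold change 3.59, standard error 0.54, limma adjusted p = 0.00193). Every tumor was above every gland in both. Rb1, whose protein the INK4 inhibitors act through, fell from 34.2, 41.4, 72.4 and 49.2 TPM in the glands to 7.19 to 26.4 TPM in the tumors (median 12) (log2 fold change -1.80, standard error 0.34, limma adjusted p = 0.00617). Cdkn1c, or p57, also fell (log2 fold change -1.92, limma adjusted p = 0.0492). Among 20 p53 target genes, Gtse1 (1.94) and Bax (1.05) were called higher and Fas (-1.19) lower, as log2 fold changes, with limma adjusted p-values of 0.0131, 0.021 and 0.0204. This is 3 of 20 in all, near the 17.1% among all genes. Cdkn1c kept its call only without mouse 89, 897 or 517_3 among the fits without 1 mouse. Bax lost its call without mouse 133. Fas lost its call without mouse 392 or 517_3.

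**Figure D3:**
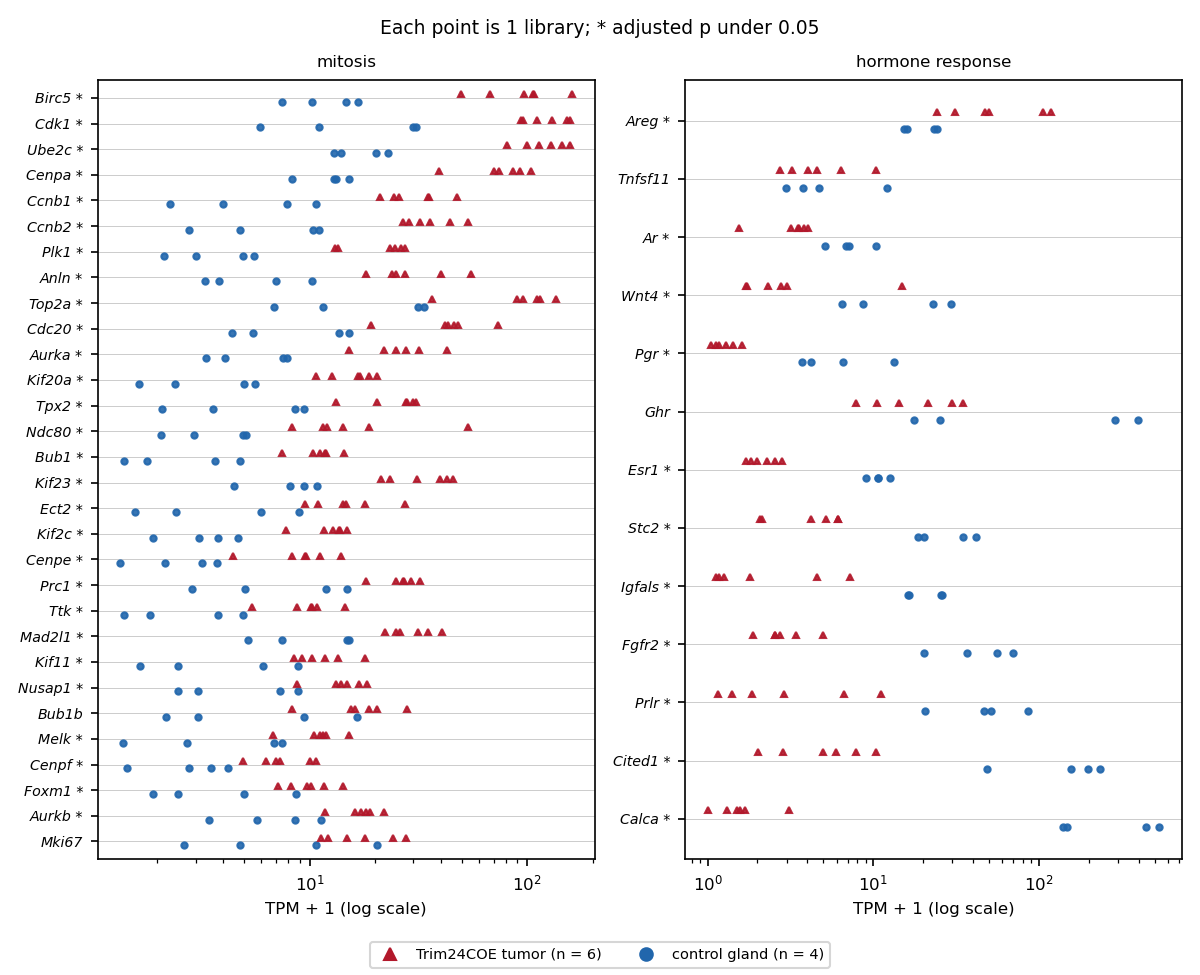
TPM + 1 (log scale) of every tested member of the mitosis list (left) and the hormone response list (right), with tumors as red triangles and control glands as blue circles, 1 point per library, and an asterisk for called genes. Mitosis genes lie higher in the tumors, 28 of 30 called, and 10 of 13 hormone response genes lie lower.

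Most genes of hormone response were lower. Of 13 tested, out of 15, 10 were called lower and 1 higher (median log2 fold change -2.30). Calca, which encodes calcitonin and is induced by progesterone in the gland, had 0 to 2.11 TPM in the tumors (median 0.54) and 138, 146, 441 and 532 TPM in the glands (log2 fold change -7.37, standard error 0.45, limma adjusted p = 5.16e-05), the largest decrease among the genes named by the rule. Fgfr2, a receptor of fibroblast growth factors, had 0.89 to 4.0 TPM in the tumors (median 1.64) and 19.1, 35.6, 68.9 and 55.1 TPM (log2 fold change -3.84, standard error 0.38, limma adjusted p = 0.000275). Esr1, the estrogen receptor alpha, had 0.71 to 1.83 TPM in the tumors (median 1.15) and 9.63, 9.68, 11.6 and 8.02 TPM (log2 fold change -2.30, standard error 0.23, limma adjusted p = 0.000298). In these genes the tumors of both classes lay together, far below the glands. Cited1, a co-regulator of the estrogen receptor in the ducts, had 1.02 to 9.4 TPM in the tumors (median 4.45) and 47.9, 154, 195 and 233 TPM (log2 fold change -4.80, standard error 0.54, limma adjusted p = 0.000448). Stc2, an estrogen-induced secreted protein, fell by 2.79 on the log2 scale (limma adjusted p = 0.00165). The member that rose, named after its values were seen, was Areg, an EGF receptor ligand, from 14.9, 14.3, 22.2 and 23.2 TPM in the glands to 23.2 to 116 TPM in the tumors (median 47.3) (log2 fold change 1.46, limma adjusted p = 0.0428). It was not called with the pair averaged, with either pair alone or with the adipocyte covariate. The count of lower genes was 8 to 10 under all of these settings. Areg kept its call only without mouse 64 or 273_5 among the fits without 1 mouse.

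Of 20 luminal genes, 5 were called lower in the tumors and 0 higher (median log2 fold change -1.85), and these 5 encode transcription factors. The count was 3 to 7 in the fits without 1 mouse (3 without 64, 567, 897, 3956, 417_3 or 517_3). With the adipocyte covariate Foxa1 and Spdef were still called, and the median was -1.45. Foxa1, a pioneer factor for the estrogen receptor, had 0.2 to 4.71 TPM in the tumors (median 1.07) and 12.7, 20.5, 44.3 and 35.2 TPM in the glands (log2 fold change -3.56, standard error 0.46, limma adjusted p = 0.00097). Gata3, which maintains luminal identity, had 1.84 to 31.9 TPM in the tumors (median 7.36) and 42.6, 55.8, 104 and 91.9 TPM (log2 fold change -3.04, standard error 0.55, limma adjusted p = 0.00486). Spdef, an ETS factor, was low in all libraries, with 0.14 to 1.03 TPM in the tumors (median 0.21) and 2.69, 2.8, 4.09 and 4.26 TPM (log2 fold change -1.71, limma adjusted p = 0.00134). Elf5, the factor of alveolar cells, had 0.8 to 88.1 TPM in the tumors (median 3.62) and 127, 61.3, 304 and 248 TPM (log2 fold change -4.12, standard error 1.17, limma adjusted p = 0.0336). Carcinomas 89 and 273_5 kept 88.1 and 79.3 TPM of Elf5 and overlapped the glands, whereas the other 4 tumors had 4.89 TPM or less. Ehf, another ETS factor, had 0.32 to 76.1 TPM in the tumors (median 1.64) and 47.1, 28.6, 184 and 137 TPM (log2 fold change -3.87, limma adjusted p = 0.0391), and there too carcinomas 89 and 273_5 were the highest tumors. The summed level of the luminal list was 3662, 3362 and 7549 TPM in carcinomas 89, 273_5 and 3956, and 327, 562 and 1421 TPM in carcinosarcomas 64, 567 and 897. The glands had 1214, 1819.8, 5656 and 5794 TPM, so the carcinomas lay within or above the range of the glands and carcinosarcomas 64 and 567 below it. Elf5 and Ehf kept their calls only without mouse 89, 273_5 or 392 among the fits without 1 mouse.

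Basal genes held 2 calls of 12, both lower (16.7%, against 9.13% among all genes). Oxtr, the oxytocin receptor of myoepithelial cells, had 0.06 to 1.73 TPM in the tumors (median 0.535) and 22.7, 26.1, 25.1 and 25.9 TPM in the glands (log2 fold change -3.99, standard error 0.34, limma adjusted p = 0.000134). Myh11, a myosin of smooth muscle and myoepithelium, had 0.15 to 3.79 TPM in the tumors (median 0.4) and 17.8, 21.4, 340.4 and 235 TPM (log2 fold change -5.43, standard error 0.83, limma adjusted p = 0.00196). Myh11 was far higher in glands 417_3 and 517_3 than in 133 and 392, and all tumors lay below both pairs. The basal list summed to 3595 TPM in carcinoma 89, near the 3964 and 4025 TPM of glands 417_3 and 517_3, and to 149 to 583 TPM in the other tumors. Milk protein genes had 2 calls of 13, both lower (15.4%, against 9.13% among all genes). They were Muc15 (log2 fold change -5.19, limma adjusted p = 0.00784) and Btn1a1 (log2 fold change -3.74, limma adjusted p = 0.0131), both membrane proteins of secretory cells. Set against glands 417_3 and 517_3 alone, 9 of the 13 were lower, and with glands 133 and 392 alone 0.

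Fibrillar collagens and the enzymes that fold and crosslink them were higher. Of 22 genes, 14 were called higher and 0 lower (median log2 fold change 2.12). P4ha1, a prolyl hydroxylase of collagen, had 61.5 to 152 TPM in the tumors (median 87.6) and 12.3, 14.8, 19.9 and 17.8 TPM in the glands (log2 fold change 2.45, standard error 0.27, limma adjusted p = 0.00041). Col12a1, a collagen that sits on the surface of fibrils (chromosome 9, 79598991 to 79718831), had 29.9 to 353 TPM in the tumors (median 132) and 2.82, 1.91, 5.27 and 5.41 TPM (log2 fold change 4.72, standard error 0.55, limma adjusted p = 0.000525). Fn1, fibronectin, had 224 to 1885 TPM in the tumors (median 1137) and 17.1, 26.3, 26.1 and 27 TPM (log2 fold change 4.94, limma adjusted p = 0.000651). P4ha3 (2.88), a hydroxylase of the same kind, and Plod2 (2.25), a lysyl hydroxylase, rose on the log2 scale too. All tumors exceeded all glands for these 5 genes, and carcinoma 273_5 was the lowest tumor in 4 of them. The list summed to 1322 to 11791 TPM in the tumors (median 4713) and 995, 1097, 666 and 613 TPM in the glands. It was highest in carcinosarcomas 567 and 64 and lowest in carcinoma 273_5. In the fits without 1 mouse, 10 to 20 of the 22 were called, the highest of these without carcinoma 273_5, and 7 with the adipocyte covariate, where the median was 2.17. Of 15 fibroblast markers, Pdgfrb was called higher (log2 fold change 1.61, limma adjusted p = 0.0422), Dpp4 (log2 fold change -1.03, limma adjusted p = 0.0385) and Clec3b (log2 fold change -3.09, limma adjusted p = 0.0412) lower, and the sum was 329 to 2949 TPM in the tumors (median 1413) and 1166, 1869, 956 and 887 TPM in the glands. Fibroblast calls, 6.67% higher and 13.3% lower, were near the 7.96% and 9.13% among all genes. Pdgfrb kept its call only without mouse 273_5 or 897 among the fits without 1 mouse. Dpp4 kept its call only without mouse 89 or 567. Clec3b kept its call only without mouse 89, 417_3 or 517_3.

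Of 23 matrix proteases and inhibitors, 10 were called higher and 2 lower. Timp1, an inhibitor of metalloproteases, had 233 to 1684 TPM in the tumors (median 543) and 7.18, 17.1, 17.4 and 22.3 TPM in the glands (log2 fold change 5.14, standard error 0.49, limma adjusted p = 0.000218). Its relative Timp4 moved the other way, with 0.05 to 3.62 TPM in the tumors (median 0.22) and 67.5, 137, 10.1 and 7.99 TPM (log2 fold change -4.40, standard error 0.76, limma adjusted p = 0.00371). Mmp13, a collagenase, had 11.9 to 898 TPM in the tumors (median 488) and 1.8, 1.45, 4.63 and 4.87 TPM (log2 fold change 5.90, standard error 1.09, limma adjusted p = 0.00515). Mmp10, or stromelysin 2, had 2.58 to 192 TPM in the tumors (median 50.02) and 0.09, 0.2, 0.13 and 0.28 TPM (log2 fold change 4.92, standard error 0.89, limma adjusted p = 0.0047). In the glands Mmp10 was under 1 TPM throughout, and it was tested only because the tumors expressed it. Adam8, a membrane protease of leukocytes, rose as well (log2 fold change 2.62, limma adjusted p = 0.004). Timp3, the other inhibitor that fell, named after its values were seen, had 14.7 to 56.6 TPM in the tumors (median 23.7) and 35.4, 82.9, 175 and 132 TPM (log2 fold change -1.85, limma adjusted p = 0.0229). With the adipocyte covariate 1 of the 23 was called higher, and the median went from 1.98 to 1.08. Of 18 basement membrane genes, 2 were called higher (11.1%) and 2 lower (11.1%), near the 7.96% and 9.13% among all genes, and with the adipocyte covariate 0 were higher and 1 lower. They were Lamb1 (1.46) and Col18a1 (2.20), higher, and Lama2 (-2.24) and Lamb2 (-1.24), lower, as log2 fold changes, with limma adjusted p-values of 0.00944, 0.0104, 0.00298 and 0.0376. In the TGF-beta and activin list, 2 of 20 genes were called higher (10%) and 1 lower (5%), near the 7.96% and 9.13% among all genes. Inhba, the subunit of activin A, had 9.09 to 65.1 TPM in the tumors (median 53.6) and 2.03, 0.85, 1.42 and 1.51 TPM (log2 fold change 3.87, standard error 0.53, limma adjusted p = 0.00123). Tgfbi, a matrix protein induced by TGF-beta, rose (log2 fold change 2.33, limma adjusted p = 0.00293), and the co-receptor Tgfbr3 fell (log2 fold change -2.24, limma adjusted p = 0.015). Timp3 lost its call without mouse 417_3 or 517_3. Lamb2 kept its call only without mouse 64, 89 or 3956 among the fits without 1 mouse.

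**Figure D4:**
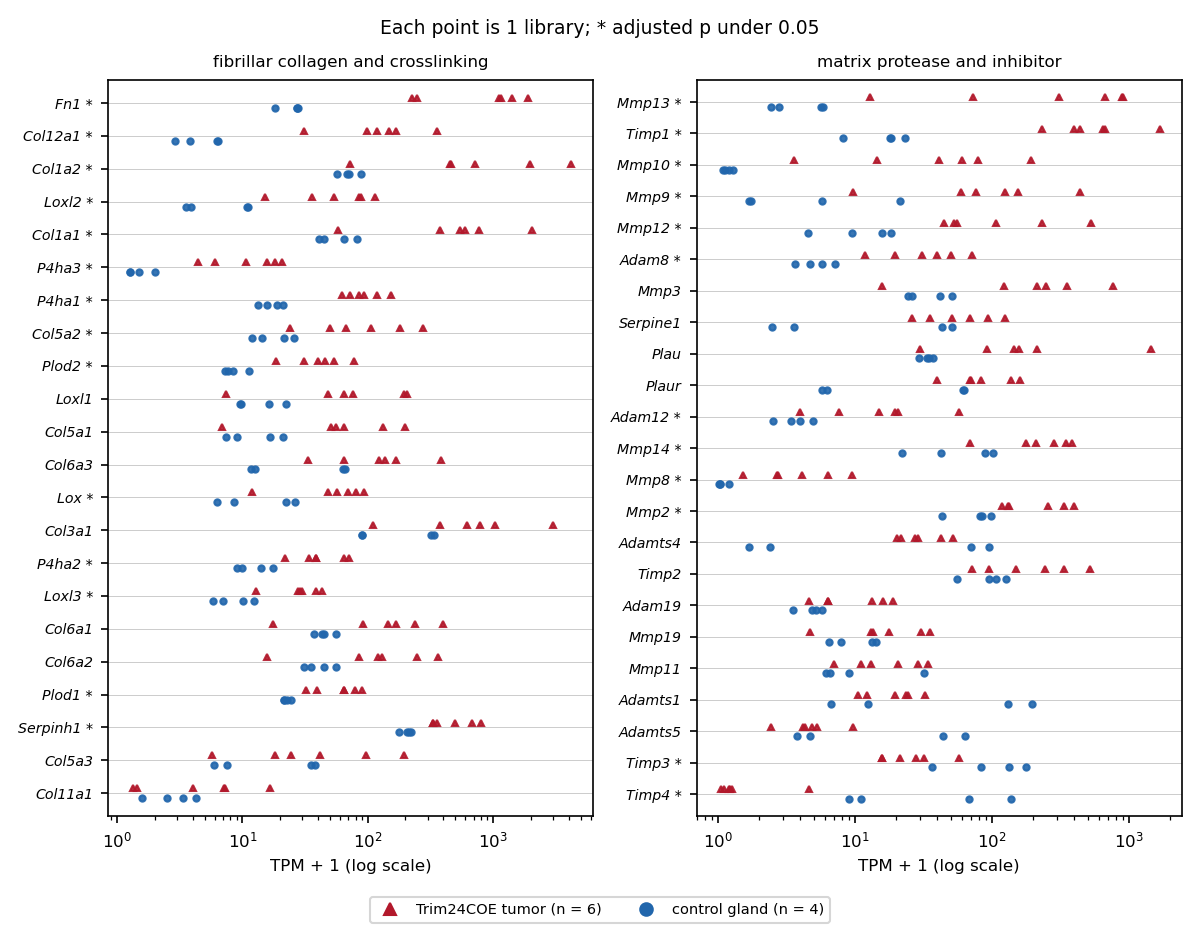
TPM + 1 (log scale) of every tested member of the fibrillar collagen list (left) and of the matrix protease list (right), with tumors as red triangles and control glands as blue circles, 1 point per library, and an asterisk for called genes. Of the collagen list 14 of 22 genes were called higher, and of the proteases 10 of 23, with Timp4 and Timp3 lower.

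Glycolytic genes were higher, with 9 of 20 called higher and 1 lower (median log2 fold change 1.13). Pgam1, phosphoglycerate mutase, had 409 to 655 TPM in the tumors (median 536) and 162, 116, 111 and 116 TPM in the glands (log2 fold change 2.06, standard error 0.20, limma adjusted p = 0.000245). Pkm, pyruvate kinase, had 929 to 2033 TPM in the tumors (median 1386) and 227, 172, 299 and 279 TPM (log2 fold change 2.45, standard error 0.27, limma adjusted p = 0.00041). Pgk1, phosphoglycerate kinase, had 505 to 1445 TPM in the tumors (median 712) and 147, 139, 127 and 135 TPM (log2 fold change 2.56, standard error 0.31, limma adjusted p = 0.000645). In these 3 genes no tumor reached down to the glands. Slc16a3, the lactate exporter MCT4, had 23 to 159.5 TPM in the tumors (median 101) and 1.13, 4.78, 6.31 and 6.48 TPM (log2 fold change 4.03, standard error 0.52, limma adjusted p = 0.00096). Pfkfb3, which makes the activator of phosphofructokinase, was the member that fell, from 84.6, 86, 114 and 72.3 TPM in the glands to 6.55 to 24.8 TPM in the tumors (median 12.3) (log2 fold change -2.75, standard error 0.32, limma adjusted p = 0.000515). The counts were 9 and 1 with the adipocyte covariate as well, and 8 to 11 higher and 1 lower over both gland pairs, the averaged pair and the fits without 1 mouse. Of 24 nuclear genes of the respiratory chain, Sdha, a subunit of succinate dehydrogenase, was called lower (log2 fold change -0.76, limma adjusted p = 0.0336) and 0 were higher. This share (4.17%) was below the 9.13% lower among all genes. Of 13 genes of mitochondrial DNA, 0 were called in limma, and 0 had an unadjusted p under 0.05. Sdha kept its call only without mouse 89, 273_5 or 517_3 among the fits without 1 mouse.

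Fat cell genes were lower, but the glands were far apart. Of 21 adipocyte genes tested, 10 were called lower and 0 higher (median log2 fold change -3.62). The list summed to 40136, 49380.4, 2226 and 2391 TPM in the glands and to 232 to 2652 TPM in the tumors (median 345). Glands 133 and 392 were thus far richer in these transcripts than 417_3 and 517_3, and carcinoma 89 lay above both of the latter. Pparg, the master regulator of fat cells, had 1.45 to 15 TPM in the tumors (median 2.58) and 119.9, 98, 23.2 and 20.4 TPM in the glands (log2 fold change -3.47, standard error 0.64, limma adjusted p = 0.00511). Fabp4, a fatty acid carrier, had 68.5 to 799 TPM in the tumors (median 153) and 15809.5, 21653, 1644 and 1830.2 TPM (log2 fold change -4.81, standard error 0.89, limma adjusted p = 0.00524). Aqp7, the glycerol channel, Pnpla2, the lipase that starts triglyceride breakdown, and Dgat2, which makes triglycerides, had log2 fold changes of -3.46, -2.99 and -3.83. With glands 417_3 and 517_3 alone 3 of 21 were called lower and the median was -0.74, and with 133 and 392 alone 19 and -5.98. The count of 10 was 3 to 12 in the fits without 1 mouse (3 without 133 or 392, 4 without 64 or 897 and 5 without 567). Pnpla2 lost its call without mouse 133 or 392. Dgat2 lost its call without mouse 64, 897, 133 or 392.

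Of 19 genes of fatty acid and ketone oxidation tested, 9 were called lower and 0 higher (median log2 fold change -1.07). The count was 4 to 12 in the fits without 1 mouse (4 without 567, 3956 or 133 and 5 without 64, 897, 392 or 517_3), and with the adipocyte covariate 4 were called and the median was -0.55. Ehhadh, a peroxisomal enzyme of beta oxidation, had 0.95 to 3.15 TPM in the tumors (median 2.28) and 12.1, 9.52, 17.9 and 15.7 TPM in the glands (log2 fold change -2.27, standard error 0.30, limma adjusted p = 0.00111), with no tumor near the glands. Acsl1, which activates long-chain fatty acids, had 3.62 to 34.2 TPM in the tumors (median 9.36) and 231, 189, 50.7 and 36.2 TPM (log2 fold change -3.18, limma adjusted p = 0.00853). Decr1 (-1.47), also of beta oxidation, fell by less on the log2 scale. Of 17 genes of fatty acid synthesis, 3 were called lower (17.6%, against 9.13% among all genes), Lpin1 (log2 fold change -2.71, limma adjusted p = 0.00196), Gpam (log2 fold change -1.68, limma adjusted p = 0.0424) and Dgat2. That count was 1 to 5 in the fits without 1 mouse (1 without 64, 897, 133 or 392 and 5 without 89), and the median of the list went from -1.38 to 0.22 with the adipocyte covariate, where 1 was called lower and 1 higher. Of 17 genes of cholesterol synthesis, Hmgcs1 (-1.18), Insig1 (-1.48) and Sc5d (-0.99) were called lower, with limma adjusted p-values of 0.00646, 0.00737 and 0.0491, and 2 were called higher, among them Dhcr7 (log2 fold change 0.92, limma adjusted p = 0.0481). Cholesterol calls were thus 11.8% higher and 17.6% lower, against 7.96% and 9.13% among all genes. Decr1 kept its call only without mouse 89, 273_5, 897, 417_3 or 517_3 among the fits without 1 mouse. Gpam kept its call only without mouse 89, 273_5, 3956 or 517_3. Sc5d kept its call only without mouse 567 or 392. Dhcr7 kept its call only without mouse 273_5 or 897.

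In lists of vessel, smooth muscle and nerve genes more members were called lower than higher. Of 18 genes of blood endothelium, 7 were called lower and 0 higher (median log2 fold change -1.15), and the sum was 194 to 944 TPM in the tumors (median 530.1) and 1034, 1371, 1150.0 and 1120 TPM in the glands. The count of 7 was 4 to 9 in the fits without 1 mouse (4 without 417_3). Cd300lg, a receptor of capillary and venous endothelium, had 2.11 to 8.52 TPM in the tumors (median 3.81) and 86.7, 96.5, 86.4 and 80.5 TPM (log2 fold change -4.09, standard error 0.33, limma adjusted p = 0.0001), with the 4 glands close together. Sox17, a factor of arterial endothelium, had 0.98 to 5.36 TPM in the tumors (median 3.91) and 19.8, 20.6, 39.3 and 34.7 TPM (log2 fold change -2.74, limma adjusted p = 0.00133), and Vwf, von Willebrand factor, 3.7 to 14.3 TPM in the tumors (median 8.62) and 32.4, 70.2, 60.4 and 74.7 TPM (log2 fold change -2.66, limma adjusted p = 0.00148). Tek (-1.64) and Kdr (-1.46), the receptors for angiopoietins and VEGF, fell by less. Of 6 genes of lymphatic endothelium 0 were called in limma, and 1 had an unadjusted p under 0.05. Of 13 pericyte and smooth muscle genes, 6 were called lower, among them Mylk (-3.42), Lmod1 (-3.01), Rgs5 (-1.48) and Notch3 (-2.14), and Pdgfrb higher. Their sum was 234 to 1409.7 TPM in the tumors (median 406) and 452, 596, 3389 and 3329 TPM in the glands, so the tumors overlapped glands 133 and 392. Against these 2 glands alone 2 of the 13 were lower, with a median log2 fold change of -0.72 against -1.48 with all 4, and lower calls numbered 3 to 6 in the fits without 1 mouse (3 without 64, 417_3 or 517_3). Of 11 Schwann cell and nerve genes, 5 were lower and 1 higher. Against glands 133 and 392 alone 1 of the 11 was lower, and lower calls numbered 3 to 6 in the fits without 1 mouse (3 without 64, 392, 417_3 or 517_3). Mbp, a structural protein of myelin, had 2.76 to 13.8 TPM in the tumors (median 5.08) and 14.5, 38, 60.6 and 53.4 TPM (log2 fold change -2.48, limma adjusted p = 0.0072). Cdh19 (-1.0), a cadherin of Schwann cell precursors, also fell, and Tubb3, a neuronal tubulin, rose (log2 fold change 1.87, limma adjusted p = 0.0237). Tubb3 was under 1 TPM in all 4 glands and was tested only because the tumors expressed it. Of 14 genes of skeletal muscle, which lies under the gland, 0 were called in limma, with 0 at an unadjusted p under 0.05. Their sum was 39 to 1463 TPM in the tumors (median 279) and 562, 3497, 23.2 and 23.5 TPM in the glands, and with glands 417_3 and 517_3 alone 5 were called higher. Kdr lost its call without mouse 133 or 417_3. Rgs5 kept its call only without mouse 89, 273_5, 567, 897 or 3956 among the fits without 1 mouse. Notch3 kept its call only without mouse 89, 273_5, 3956, 133 or 392. Cdh19 kept its call only without mouse 89, 273_5, 567, 3956 or 133. Tubb3 lost its call without mouse 392, 417_3 or 517_3.

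Of 18 genes of the circadian clock, 10 were called lower and 0 higher (median log2 fold change -1.40). The count was 4 to 11 in the fits without 1 mouse (4 without 417_3, 5 without 64 or 517_3 and 6 without 3956 or 392), and with the adipocyte covariate 3 were called and the median was -1.60. Cry2, a repressor of the clock, had 1.88 to 3.57 TPM in the tumors (median 2.23) and 15.2, 16.2, 15.6 and 10.9 TPM in the glands (log2 fold change -2.16, standard error 0.24, limma adjusted p = 0.000387), and the groups were far apart. Rora (-1.60), Nr1d1 (-2.27) and Dbp (-1.68), an activator, a repressor and an output factor, followed. The time of day at which tissue was taken is not given in the labels, and its part in the result was not tested. Immediate early genes set the glands apart from one another: the list summed to 438, 577, 19514 and 17850.2 TPM in the glands and 856 to 1445 TPM in the tumors (median 1240.4). Fos, a subunit of AP-1, had 31.4, 30.7, 3381 and 3025 TPM in the glands and 16.2 to 39 TPM in the tumors (median 24.2) (log2 fold change -3.69, limma adjusted p = 0.0718). Jun (0.222) and Jund (0.308) had the same layout and limma adjusted p-values above the threshold. Of 18 tested, 0 were called in limma, against 5 at an unadjusted p under 0.05. With glands 417_3 and 517_3 alone 16 were called lower, and with glands 133 and 392 alone 4 were called higher. Clock genes moved with this split in part, with 201, 318, 851 and 636 TPM in the glands and 117 to 282 TPM in the tumors (median 192), and 11 of 18 were lower with glands 417_3 and 517_3 alone, against 3 lower and 1 higher with glands 133 and 392 alone. Nr1d1 lost its call without mouse 392, 417_3 or 517_3. Dbp lost its call without mouse 392 or 517_3.

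**Figure D5:**
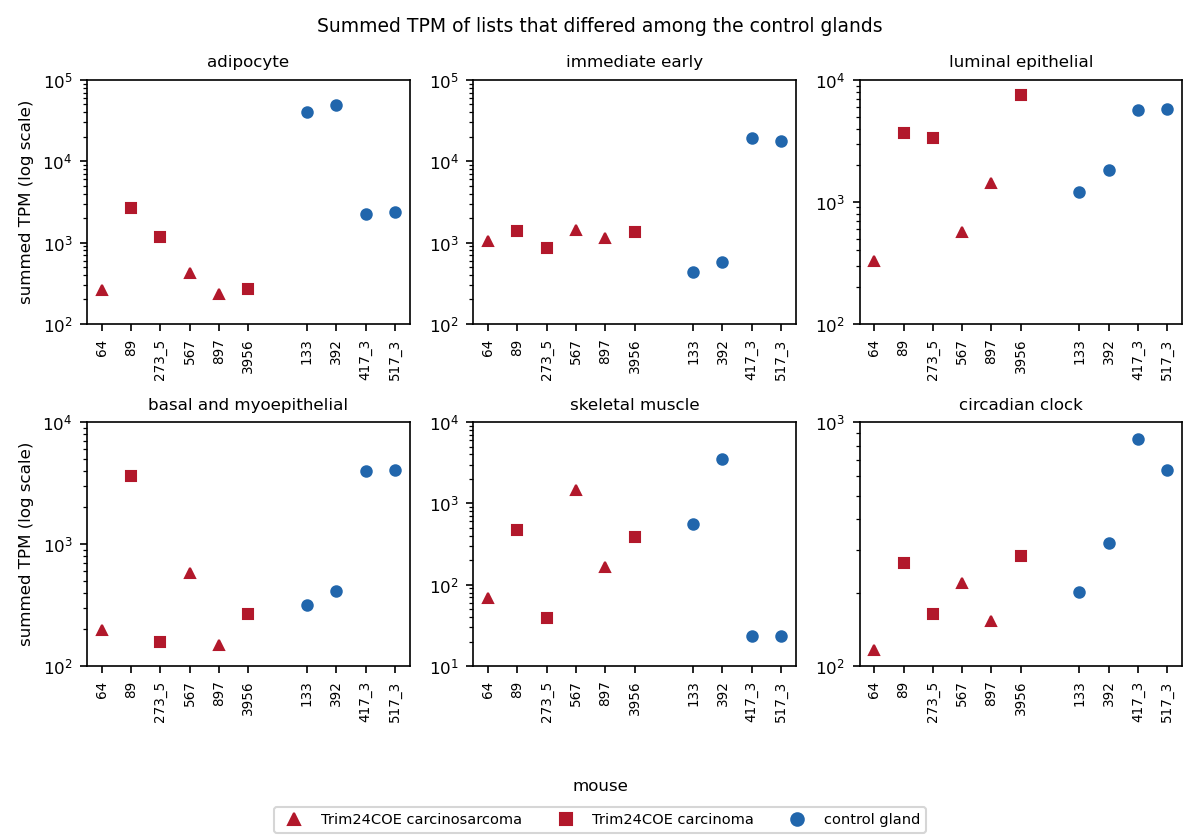
Summed TPM (log scale) of 6 lists in each library, with carcinosarcomas as triangles, carcinomas as squares and control glands as circles, labelled by mouse. Glands 133 and 392 lie above 417_3 and 517_3 for adipocyte and skeletal muscle genes and below them for the other 4 lists, most of all for immediate early genes.

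Among receptor tyrosine kinases, 2 of 23 were called higher (8.7%) and 6 lower (26.1%), against 7.96% and 9.13% among all genes. Lower calls numbered 3 to 7 in the fits without 1 mouse (3 without 417_3). Csf1r, the receptor that macrophages need for survival, had 38.3 to 159.5 TPM in the tumors (median 106) and 16.5, 33.1, 17.6 and 15.5 TPM in the glands (log2 fold change 2.13, standard error 0.43, limma adjusted p = 0.00805). The other that rose was Pdgfrb. Besides Fgfr2, Kit and Kdr, Ltk fell, from 1.67, 1.95, 5.59 and 4.81 TPM in the glands to 0.05 to 1.23 TPM in the tumors (median 0.12) (log2 fold change -1.66, limma adjusted p = 0.0086), values close to the added 1 TPM.

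Outside the lists, the rule gave further genes. Nt5dc2, a protein of the nucleotidase family, had 29.8 to 107 TPM in the tumors (median 78.7) and 3.26, 3.51, 5.38 and 5.09 TPM in the glands (log2 fold change 3.63, standard error 0.36, limma adjusted p = 0.000245). Pla2g7, a secreted phospholipase that degrades platelet-activating factor, had 103 to 255 TPM in the tumors (median 167) and 14.5, 18.2, 32.3 and 30.2 TPM (log2 fold change 2.84, standard error 0.30, limma adjusted p = 0.00033). Both were above the glands in all 6 tumors. The largest fitted increase was that of Prl2c3, a placental hormone of the proliferin group, with 5.47 to 1781 TPM in the tumors (median 329) and 2.82, 0.52, 0.99 and 1.02 TPM (log2 fold change 6.09, standard error 1.35, limma adjusted p = 0.0125). The tumors ranged widely, from carcinosarcoma 64 at the lower end to carcinoma 89 at the upper end. Prl2c2, nearly identical in sequence, had 2.25 to 567 TPM in the tumors (median 67.7) and 0.18, 0.09, 0.55 and 0.27 TPM (log2 fold change 5.25, limma adjusted p = 0.0159). Reads of such copies can be split between them, so the level of each is uncertain. Dynap, a membrane protein, had 20.02 to 569 TPM in the tumors (median 32.5) and 0.3, 0.39, 0.06 and 0.05 TPM (log2 fold change 5.56, standard error 0.80, limma adjusted p = 0.00143), with the highest value in carcinoma 3956. Prl2c2 and Dynap were under 1 TPM in all 4 glands and were tested only because the tumors expressed them.

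Among decreases with the smallest p-values, Abcc8, a subunit of ATP-sensitive potassium channels, had 0.02 to 0.28 TPM in the tumors (median 0.09) and 6.53, 5.41, 6.58 and 4.93 TPM in the glands (log2 fold change -2.60, standard error 0.19, limma adjusted p = 0.0001). Dkkl1, a secreted protein related to Dickkopf, had 0.52 to 2.05 TPM in the tumors (median 0.8) and 19.4, 26, 35.7 and 42.5 TPM (log2 fold change -3.95, limma adjusted p = 0.0001). Heph, a copper oxidase of iron export, had 0.27 to 1.84 TPM in the tumors (median 0.5) and 18, 19.1, 15.7 and 12.1 TPM (log2 fold change -3.33, limma adjusted p = 0.000144). Agtr1a, a receptor of angiotensin II, had 0.42 to 2.96 TPM in the tumors (median 0.995) and 26.7, 36.8, 27 and 21.8 TPM (log2 fold change -3.76, limma adjusted p = 0.000161). These 4 had at most 2.96 TPM in any tumor. Dpyd, which degrades pyrimidines (-2.54), Bmp3, a secreted BMP family member (-3.12), Rbp7, a retinol carrier (-3.88), and Inmt, a methyltransferase (-4.27), had adjusted p-values in limma between 0.000207 and 0.000218. Abcc8, Dpyd and Bmp3 were under 1 TPM in all 6 tumors and were tested only because the glands expressed them. Among called genes whose groups did not overlap, the largest fitted decreases besides Calca and Myh11 were those of Fcgbp, a mucin-like protein of secretions, with 3.37 to 177 TPM in the tumors (median 6.21) and 519, 994, 1432 and 1893 TPM (log2 fold change -6.66, standard error 0.92, limma adjusted p = 0.00123), Atp6v1b1, a proton pump subunit (log2 fold change -5.50, limma adjusted p = 0.00219), the fatty acid transporter Cd36 (log2 fold change -5.23, limma adjusted p = 0.00041) and Bglap3 (log2 fold change -5.15, limma adjusted p = 0.00105). In Fcgbp, Atp6v1b1, Cd36 and Bglap3, carcinoma 89 was the highest tumor, yet below every gland.

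The tumors also varied among themselves. In the study's supplementary list of tumors, pathologists differed on 89 and 3956, which 1 called carcinosarcoma and the other carcinoma. They also differed on 567, which 1 called spindle cell carcinoma and the other carcinosarcoma. The same list carries a call made from RNA-seq, so the class labels may not be independent of these data. In a fit of 3 groups, 110 of 15196 genes (0.724%) differed between the 3 carcinosarcomas and the 3 carcinomas, 25 higher and 85 lower in the carcinosarcomas. Of these 110, 5 (4.55%) were among the 2597 genes called between tumors and glands (0.193% of them), against 17.1% of all tested genes. The fit of tumors against glands pooled both classes, so a class difference adds to its spread. Whether this lowered the overlap was not tested. The 5 genes are named here after their values were seen: Il24, Rassf6, Cdkn2a, Cthrc1 and Gm10282. Il24, a cytokine of the IL-10 family, was higher in tumors than in glands (log2 fold change 3.13), although carcinosarcoma 64 overlapped the glands, and lower in carcinosarcomas, with 0.34, 1.57 and 8.14 TPM against 36.9, 32.5 and 34.1 TPM in the carcinomas. Cdkn2a was highest in the carcinosarcomas, with 779.7, 887 and 1074 TPM against 138, 154 and 90.2 TPM (log2 difference 2.86, limma adjusted p = 0.0496). Cthrc1, a secreted protein of collagen-making cells, had the same direction, with 184, 152 and 178 TPM against 52.6, 18.2 and 26.5 TPM (log2 difference 2.49, limma adjusted p = 0.0496). Among the lists, 9 of 20 luminal genes differed between the classes, with a median of -3.33 over the list. For mitosis, macrophage, collagen, hormone response and clock genes 0 members differed in limma, with medians of 0.27, 0.42, 0.99, 0.01 and -0.20, against 1, 2, 8, 0 and 1 members at an unadjusted p under 0.05. The number of class differences rested on single tumors: it was 7 without carcinosarcoma 64, 31 without carcinoma 89, 69 without 273_5, 42 without 567, 29 without 897 and 265 without 3956. In the comparison of tumors with glands, Il24 kept its call only without mouse 64 or 567 among the fits without 1 mouse. Rassf6 kept its call between tumors and glands only without mouse 89, 273_5 or 3956.

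The repeat libraries gave a technical check of the tumor and gland that they share. Between the repeat libraries of tumor 3956 and gland 133, 97.5% of the 2597 called genes had the same direction as in the full comparison, against 98.9% between the first libraries of these mice, which took part in the fit. All 34 genes named by p-value or size had the same direction in the repeats. They were chosen among genes whose groups did not overlap, so the first libraries of these mice had that direction by the rule. The median difference was 1.58 for genes called higher and -1.55 for genes called lower, against 1.66 and -1.55 between the first libraries.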

How the data were processed

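RNA of bulk tumors and mammary glands was sequenced as stranded total RNA libraries. The study's methods name an Illumina TrueSeq RNA kit and do not call the libraries stranded or total RNA. Per the study's methods, the authors trimmed reads, aligned them with STAR to GRCm38 and deposited TPM per gene from RSEM with GENCODE M14, while the submitters' processing notes name TopHat, Cufflinks, RSEM, DESeq and edgeR without a role. TPM have the same sum in all libraries, so depth, counting error and intervals cannot be given. Groups came from the sample labels, and each mouse counted once.

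log2(TPM + 1) of 6 tumors and 4 glands was fitted with limma 3.58.1 (R 4.3.3, empirical Bayes with a variance trend) over 15196 genes with at least 1 TPM in at least 4 libraries, and p-values were adjusted by Benjamini-Hochberg with a threshold of 0.05. Tumor classes were compared in a fit of 3 groups. Single values were compared by exact permutation over 210 assignments, whose smallest p is 0.00476. The fit was tested on data simulated with normal noise. The changed genes were drawn only from those with a mean log2(TPM + 1) above 3 and a spread below the median. Of these, 100% of genes changed 8-fold and 17% of those changed 2-fold were recovered in the comparison of tumors with glands. Recovery of lower or more variable genes was not tested. Named genes were Trim24, the 12 with the smallest p in each direction among called genes that did not overlap and had a mean of at least 5 TPM in the higher group, the 6 largest changes under the same conditions, and up to 5 members of each of 42 lists by p (up to 3 by level where fewer than 2 passed). The comparison, its members and the lists were chosen with earlier results of these data known. Some genes that the rule gives are not reported here. Alternatives were other added values, filters, scalings, weights and covariates, leaving out each mouse, and subsets of the glands added after the data were seen. Symbols were placed on GRCm38 with GENCODE M21.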

Additional observations from a re-analysis of the deposited data

Results flagged for a closer look

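In 25 of 366 sets of values, each a named gene or list sum within the 6 tumors or the 4 glands, 1 library lay apart by Dixon's test at the 95% level, which chance alone gives in about 1 in 20. Carcinoma 89 stood apart from the other tumors in Bglap3 at 15.1 TPM, Csf3r at 67.2 TPM, Fcgbp at 177 TPM, Irf1 at 187 TPM, Muc15 at 69.5 TPM, Npl at 23.4 TPM, Sdha at 126 TPM and Timp4 at 3.62 TPM. Control gland 392 stood apart from the other glands in Cd247 at 7.84 TPM, Cdkn2a at 16.5 TPM, Csf1r at 33.1 TPM, Ighm at 2215 TPM, Ms4a6d at 10.03 TPM and macrophage genes (sum) at 2038 TPM. Control gland 517_3 stood apart from the other glands in Cry2 at 10.9 TPM. Carcinoma 3956 stood apart from the other tumors in Fas at 4.44 TPM, Tk1 at 31.7 TPM, Top2a at 35.4 TPM, T cell genes (sum) at 14.8 TPM and mitosis genes (sum) at 599 TPM. Control gland 133 stood apart from the other glands in Fn1 at 17.1 TPM, H2-T23 at 143 TPM, Lgmn at 41.2 TPM, Nr1d1 at 13.1 TPM and Pgam1 at 162 TPM.

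Between the 3 carcinosarcomas and the 3 carcinomas, the limma test of the difference itself was passed by Cdkn2a (log2 difference 2.86), Cthrc1 (log2 difference 2.49), Gm10282 (log2 difference 1.36), Il24 (log2 difference -3.49) and Rassf6 (log2 difference -2.13), genes that were also called between tumors and glands.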

How the results depend on the processing

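Without 1 mouse, 1779 to 2911 genes were called (710 to 1354 higher, 940 to 1688 lower) against 2597, and changes of at least 5-fold numbered 499 to 681 against 586. At least 5-fold changes numbered 1060 with 0.1 TPM added and 211 with 5 TPM added, since the added value sets the fitted fold of low genes. Without a filter 698 genes were higher, and with a mean of at least 5 TPM, where fewer genes were tested, 778 were lower. With the adipocyte covariate 948 were called, 353 higher and 595 lower. With the macrophage covariate 10 were called, 6 higher and 4 lower, 10 of them at least 5-fold. All tumors lay above all glands in that list, so the covariate and the group could hardly be told apart. With glands 417_3 and 517_3 only, a setting added after the data were seen, 754 were higher. Between the tumor classes 110 calls became 65 with 5 TPM added (42 lower), 40 without a filter (11 higher, 29 lower), 173 with median-of-ratios scaling (61 higher) and 652 with library weights (179 higher, 473 lower). Those higher in carcinosarcomas numbered 15 with 0.1 TPM added, 54 with quantile normalization and 16 with the gland pair averaged. With glands 417_3 and 517_3 only, 180 were called (144 lower), and with 133 and 392 only 166 (142 lower). Without 1 mouse the range was 7 to 265 (0 to 44 higher, 7 to 221 lower). The log2 fold change of named genes turned its sign with the macrophage covariate in Btn1a1 (1.89), Ccl6 (-3.67), Ccl9 (-2.32), Cd74 (-0.997), Cdkn2b (-0.43), Csf1r (-1.08), Ehf (3.59), Elf5 (3.33), Fos (5.41), Gusb (-0.045), Gzmb (1.94), H2-Aa (-1.47), H2-Ab1 (-1.55), H2-K1 (0.065), Irf1 (2.58), Jun (5.08), Jund (2.01), Kit (0.031), Klrd1 (-0.86), Lmod1 (0.72), Ltk (0.52), Muc15 (0.69), Notch3 (1.28), Pdgfrb (-1.61), Sc5d (0.50), Tap2 (0.60), Trim24 (0.20) and Vtcn1 (1.51), with the adipocyte covariate in Cma1 (0.85), Mcpt4 (0.88) and Trim33 (-0.49), with glands 417_3 and 517_3 only in Cma1 (0.69), Mcpt4 (0.63) and Trim33 (-0.70), with 133 and 392 only in Gzmb (0.21), Irf1 (0.33), Jun (0.85), Jund (0.73) and Klrd1 (-0.47), with the pair averaged in Klrd1 (-0.13) and with library weights in Trim33 (-0.20). Without 1 mouse it ranged from -0.18 to 0.27 for Klrd1 and from -0.22 to 0.36 for Trim33, neither of which was called. Where no construction is named, the cause was not tested. The values are TPM without read counts, so counting error and depth could not be weighed. No paired analysis was possible because each library came from a different mouse and the numbers name mice, not pairs.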
